A study of Rattus norvegicus with 16 samples.

Results

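The genes described here encode the proteins of the cytosolic ribosome. They were chosen by symbol: every probe whose accession belongs to a rat gene named Rpl or Rps followed by a number, with or without 1 letter after it, plus Rplp0, Rplp1, Rplp2 and Rpsa, leaving out kinases, pseudogenes and symbols with an l and a further number. The rule found 134 of 30367 probes, for 77 of the 15715 genes that could be named. Measured values played no part in the rule itself, though this set of genes was chosen with earlier results of these data known. Of 79 such genes in the RefSeq table, Rpl37 and Rps9 matched no probe.

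The samples were primary cultures of hippocampal neurons from Sprague-Dawley rats at embryonic day 18, in Neurobasal medium with 5% B27. Before the drug was given, the medium was exchanged for one whose B27 lacked antioxidants. Hydroxyurea (5 µM), which blocks ribonucleotide reductase, was then left on for either 2 or 6 h, or for 12 h, or for 24 h. 1 more group had no drug. Each of the 5 groups had 3 samples. The time that untreated cultures had in the new medium is not stated, nor whether replicates were separate or pooled cultures. The p-values therefore cover the spread among these samples only, and it may be technical. Culture age differs between the labels (up to 9 days, or up to 8), as does the material (cultured cells, or tissue at extraction). All 7 defining markers of neurons on the array were well above background on all 16 arrays. So were 6 of 6 of astrocytes, 6 of 6 of the oligodendrocyte lineage, 4 of 4 of fibroblasts and pericytes, 3 of 5 of microglia (Itgam on no array) and 1 of 2 of endothelium (Cldn5 on no array). Transcripts of glial and mesenchymal cells were thus present beside those of neurons.

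The cytosolic ribosome has a large and a small subunit, each built of ribosomal RNA and many proteins, most of which are needed in equal amounts. Their messenger RNAs are among the most abundant of the cell and usually begin with a C followed by a run of pyrimidines, the terminal oligopyrimidine tract. Through this tract and the protein Larp1, the mTOR pathway sets how much of each message is translated, often with little change in its level. In neurons such messages are also carried into axons and dendrites. Arrays measure the level of the messages and not their translation.

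Promoter sequence was taken from RefSeq (build GRCr8) for the 62 member genes that its promoter table holds, to show the shared start that the rule did not use. The first transcribed base was C in 33 of 62 member promoters (53.2%) and in 24.5% of all 19005 promoters. A C followed by 4 pyrimidines opened 23 of 62 (37.1%), against 2.44% of all. The lines below give the last 15 bases before the annotated start and the first 15 after it, with capitals marking the unbroken pyrimidine run that begins at the start, for 4 members that have it and 2 that do not by this annotation.
Rplp0 (chr12:46718376-46718405, minus strand): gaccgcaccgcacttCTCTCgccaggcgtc
Rps15 (chr7:10068101-10068130, minus strand): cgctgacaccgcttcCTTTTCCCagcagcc
Rps7 (chr6:50999431-50999460, minus strand): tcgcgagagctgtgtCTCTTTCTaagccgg
Rpl35a (chr11:81235007-81235036, minus strand): gcgggtcttgccttcCTCTTTCCgccatct
Rps19 (chr1:89608673-89608702, plus strand): cccgacttgtgcgcccgggaaaccccgtcg
Rps3 (chr1:163195762-163195791, minus strand): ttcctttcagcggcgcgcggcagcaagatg
The runs are 5 bases long in Rplp0 and 8 in Rps15, Rps7 and Rpl35a. In Rps3 a stretch rich in pyrimidines lies upstream of the annotated start, and a start at another base would change its class. Over the whole window of 250 bases before and 50 after the start, read on both strands, CCGGAAG (an ETS factor core) was in 19 of 62 member promoters (30.6%) and in 11.2% of all. The letters GGGCGG were in 35 of 62 (56.5%, against 43.1%), AAGATGG in 9 (14.5%, against 7.58%), TATAAA in 7 (11.3%, against 13.1%) and CACGTG in 5 (8.06%, against 7.27%). These matches describe letters and not bound factors.

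Each value below is the log2 of the processed signal of a probe minus the array's 75th percentile, so 0 is the level below which 75% of log2 values on that array lie. Of the 77 genes, 76 were tested, through 130 probes that passed the filter on signal. The gene left untested was Rpl7a, whose only spot carried an outlier flag on the array of 12 h replicate 3 and stood between 4.73 and 5.04 in the other 14 samples. The 76 were 41 genes of the large subunit, 30 of the small subunit, the 3 of the stalk, and the paralogs Rpl3l and Rps27l. The probes of 73 of the 76 were in the brightest 10% of all features, with Rpl15, Rpl3l and Rps27l outside it. For that reason the other 1738 features of the brightest 10% are used as a second background. The median member stood at percentile 98.9 of all features, so most of this background is dimmer than the median member. RefSeq lists 897 rat symbols made of a member's symbol and the pseudogene suffix, and a probe can also bind RNA from such near-identical copies, so each level is uncertain in that respect.

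The 16 arrays lay on 2 slides, and untreated replicate 1 was hybridised on both; its arrays were averaged and counted once. Slide 1 held the first of these arrays, untreated replicate 2, the replicates 1 and 2 of 2 h and of 6 h, 12 h replicate 1 and 24 h replicate 3. The median coefficient of variation of replicate spots was 23.1% for 12 h replicate 3, 15.5% for untreated replicate 1 on its first array, and 3.38% to 7.34% elsewhere. No spot was saturated, and at least 70.2% were well above background on each array. Among the 79 member probes with a pair of spots, the median gap within a pair was 0.28 log2 for 12 h replicate 3, 0.12 for untreated replicate 1 on its first array, and 0.03 to 0.09 on the other 14. At 24 h, the score columns deposited for replicates 1 and 3 correspond to the scanner files of the opposite replicate, so which of the pair is replicate 3 is uncertain. Their group is the same.

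No ribosomal protein gene passed the test at any time. With limma and Benjamini-Hochberg adjustment over 18110 features, 0 of 76 members were called at any single time, for the 4 times averaged, between 24 h and 2 h, or by the F test among the 4 times. Over all features 0% were called in each of these comparisons. At an unadjusted p under 0.05, members numbered 0 at 2 h, 0 at 6 h, 1 at 12 h (Rps19), 0 at 24 h and 1 in the mean (Rps15), where 1.19%, 0.74%, 2.31%, 0.861% and 1.68% of all features passed. Between 24 h and 2 h no member reached that level (0.756% of features did), nor by the F test (1.09%), where the smallest unadjusted p was 0.192. The lowest adjusted p of a member was 0.997, at 12 h. The median standard error of a member's difference was 0.13 log2 at a single time, so single differences near the medians given next lie within the spread between replicates.

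The mean of most members was slightly higher with hydroxyurea than without. At 2 h this held for 73 of 76 (50.5% of all features), with a median log2 difference of 0.12, or 8.47%. At 6 h it held for 57 (47.9%), with a median of 0.04, or 2.69%. At 12 h it held for 66 (55.5%), with a median of 0.13, or 9.29%, and at 24 h for 66 (54.6%), with a median of 0.07, or 4.72%. In the mean of the 4 times 66 were higher (50.9%), with a median of 0.09, or 6.17%. The median over all features lay between -0.00 and 0.02. These comparisons share their untreated samples, so their signs are not separate evidence. The other bright features were higher too, in 75.5%, 59.4%, 67.5% and 74.6% of cases from 2 h to 24 h, by a median of 0.06, 0.02, 0.06 and 0.05. Whether the members differ from the other bright features was not tested.

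The groups seldom separated gene by gene. At 2 h every treated value lay above every untreated value for 8 of 76 members (3.34% of all features), namely Rpl22, Rpl38, Rpl4, Rps20, Rps21, Rps25, Rps3 and Rpsa, and for 110 of the 1738 other bright features. No member lay wholly below (3.01%). At 6 h this held for 0 members (1.45%), and Rpl3 alone lay wholly below (2.39%). At 12 h it held for 15 members (3.02%), 8 of the large subunit, 6 of the small subunit and Rplp1, with Rps26 wholly below (2.04%), and for 107 of the other bright features. At 24 h it held for 2 members, Rpl27a and Rps3 (1.36%), with none below (1.57%). Over all 12 treated samples no member lay wholly above (0.0387%) or below (0.0221%). The members move together from sample to sample, as shown next, so such counts do not add up over independent genes.

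**Figure D1:**
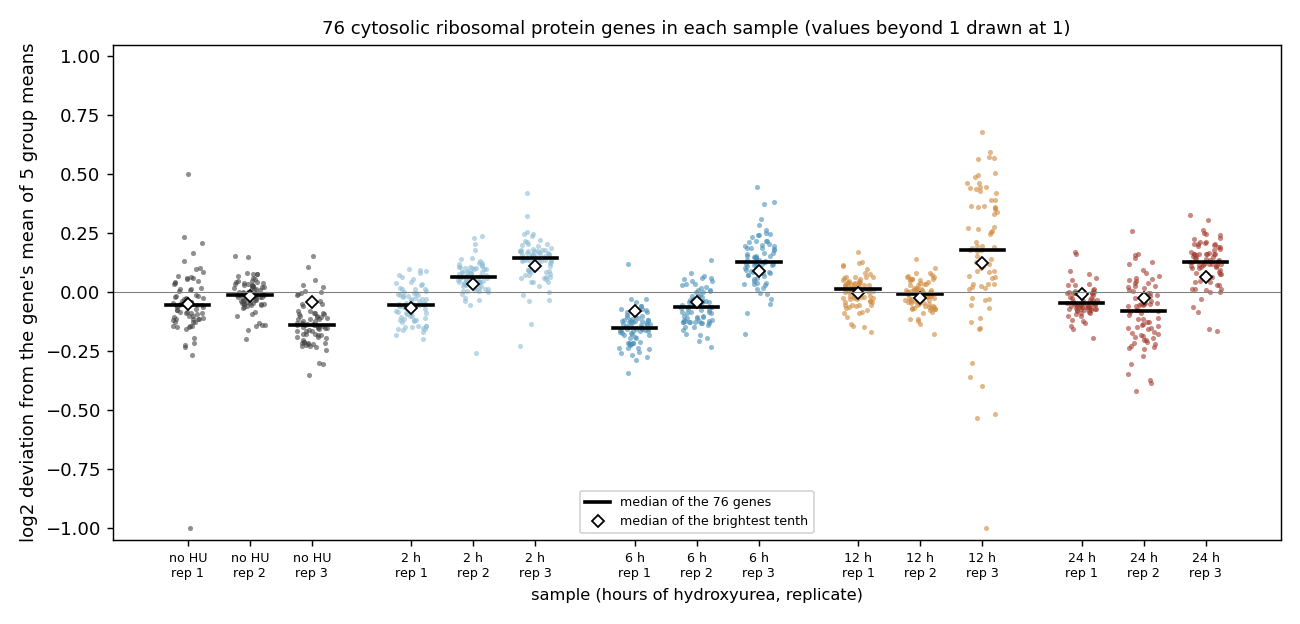
Deviation of the 76 ribosomal protein genes (points) in each of the 15 samples from the mean of the gene's 5 group means, on the log2 scale (vertical axis); samples are on the horizontal axis, "no HU" marks untreated, bars are medians of the 76 genes and diamonds medians of the other features of the brightest 10%. The bars of treated replicates 3 lie between 0.13 and 0.18, above every other sample.

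The members' values went up and down together by sample. The median deviation of the 76 genes from their own means was -0.05, -0.01 and -0.14 in untreated replicates 1 to 3. It was -0.05, 0.06 and 0.14 at 2 h and -0.15, -0.06 and 0.13 at 6 h. It was 0.01, -0.01 and 0.18 at 12 h and -0.05, -0.08 and 0.13 at 24 h. The 4 highest values were those of the samples labelled replicate 3 of each treated group, and untreated replicate 3 was the second lowest of all 15, after 6 h replicate 1. In 2 h, 6 h and 24 h replicate 3, and also in 2 h replicate 2, 70 of 76 members lay above their own mean. The number was 61 in 12 h replicate 3, 7 in untreated replicate 3 and 1 in 6 h replicate 1. The mean of the sample medians was -0.07 ± 0.07 in untreated samples, 0.05 ± 0.10 at 2 h, -0.03 ± 0.14 at 6 h, 0.06 ± 0.10 at 12 h and 0.00 ± 0.11 at 24 h (SD, n = 3 each). The median of the other bright features went the same way in those samples, at 0.11, 0.09, 0.12 and 0.06 in treated replicates 3 and -0.04 in untreated replicate 3. The array's 75th percentile, which sets the scale, was 10.60, 10.45, 10.38 and 10.42 log2 on the arrays of treated replicates 3 and 10.54 to 11.09 on the other 12 arrays. Its part in the result was not tested.

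With only replicates 1 and 2 of each group, an alternative chosen after seeing the data, the median difference was 0.04 at 2 h, -0.08 at 6 h, 0.03 at 12 h and -0.02 at 24 h, with 56, 5, 50 and 28 of 76 members higher. Leaving out 1 sample at a time, the 2 h median was 0.07 without 2 h replicate 3 and 0.17 without 2 h replicate 1. At 6 h the sign turned without 6 h replicate 3 (-0.05, with 12 members higher) and the median was 0.00 without untreated replicate 3. At 12 h it was 0.06 without 12 h replicate 3. At 24 h it was 0.01 without 24 h replicate 3 (45 higher) and 0.03 without untreated replicate 3. Which 24 h array is replicate 3 is uncertain, as said above, and the 24 h values without that replicate depend on its label. Without untreated replicate 3 the medians at 2 h and 12 h were 0.08 and 0.09. In the mean of the 4 times it was 0.06 without untreated replicate 3, and without 6 h replicate 1 at 6 h the median was 0.10.

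The slides gave different sizes. Within slide 1 the median difference of the members was 0.01 at 2 h, -0.10 at 6 h, 0.01 at 12 h and 0.13 at 24 h. Within slide 2 it was 0.25, 0.24, 0.20 and 0.06. The 12 h and 24 h values of slide 1 and the 2 h and 6 h values of slide 2 each rest on 1 treated array. With the slide as a term in the fit it was 0.12, 0.04, 0.12 and 0.06. Slide 2 held the samples labelled replicate 3 of the 2, 6 and 12 h groups and of the untreated group, and slide 1 held that of the 24 h group. Slide and replicate number can therefore not be told apart within most groups.

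Quantile normalization, which gives all arrays one distribution of signal, left medians of 0.03, 0.01, 0.01 and -0.01, with 49, 42, 42 and 27 of 76 members higher. The sample medians then ran from -0.08 to 0.04, in place of -0.15 to 0.18. The sign of the 24 h difference thus turned with the scaling. In that setting the median of the other bright features was within 0.01 of 0 at every time.

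**Figure D2:**
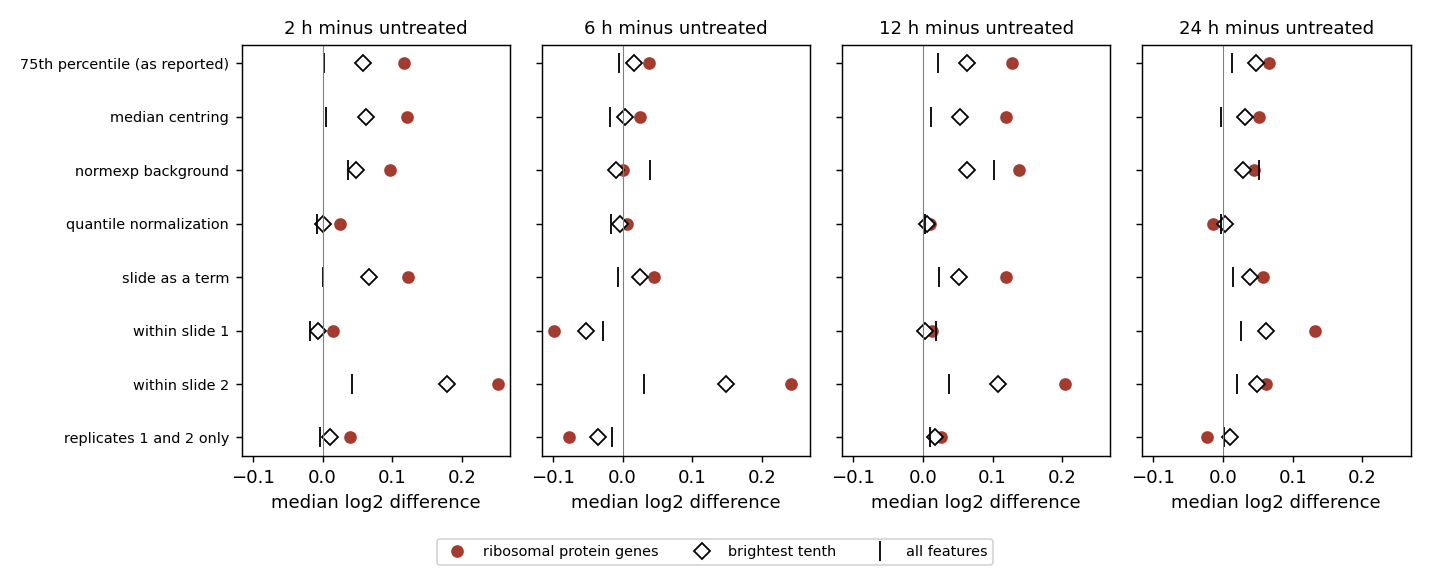
Median log2 difference between treated and untreated samples (horizontal axis) of the ribosomal protein genes (circles), the other features of the brightest 10% (diamonds) and all features (vertical ticks), under 8 ways of processing (vertical axis), with 1 panel per time. At 6 h the circles run from -0.10 within slide 1 to 0.24 within slide 2, the latter from 1 treated array. Under quantile normalization they lie between -0.01 and 0.03 at all times.

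The subunits are given side by side and their difference was not tested. At 2 h the median was 0.12 for the 41 large-subunit genes (39 higher) and 0.10 for the 30 small-subunit genes (30 higher). At 6 h it was 0.04 for both (29 and 23 higher). At 12 h it was 0.13 (36 higher) and 0.10 (26 higher), at 24 h 0.06 (37 higher) and 0.07 (25 higher), and averaged over the 4 times 0.08 and 0.09. The SD between replicates had a median of 0.14 over the members, against 0.20 over all features and 0.16 over the other bright ones. It ran from 0.09 in Rpl27a to 0.33 in Rps21 and 0.74 in Rps15. Members with a pyrimidine start (23 tested) had medians of 0.12, 0.04, 0.13 and 0.06 from 2 h to 24 h, and the other 38 with a promoter sequence had 0.12, 0.04, 0.11 and 0.08.

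**Figure D3:**
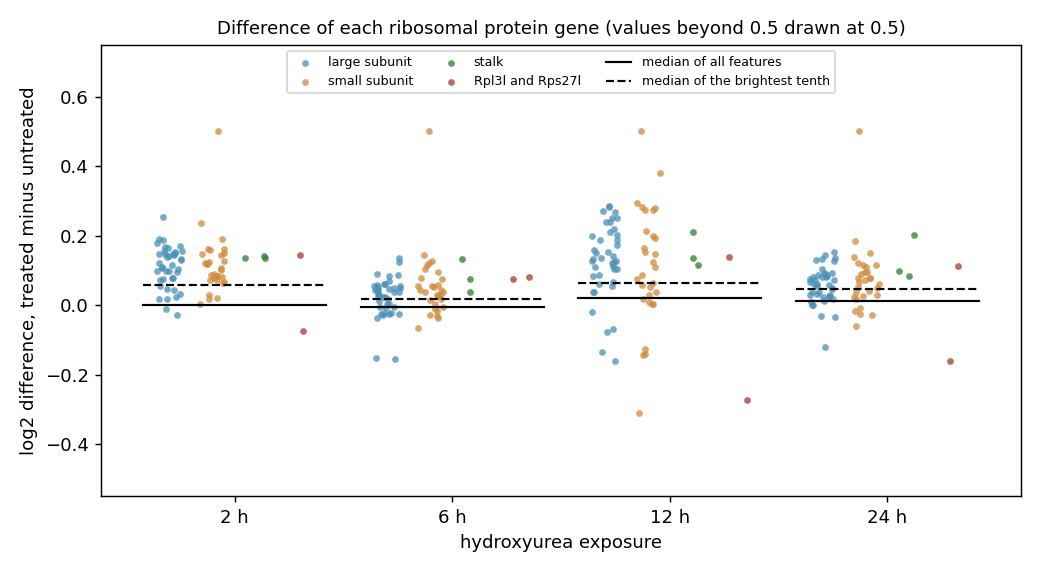
Log2 difference between treated and untreated group means of each of the 76 ribosomal protein genes (vertical axis) at each time (horizontal axis), coloured by subunit; solid lines are medians of all features and dashed lines medians of the other features of the brightest 10%. Most points lie above 0 at 2 h, and the point drawn at the upper limit of 0.5 at each time is Rps15, whose differences are 0.96 to 1.04.

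The gene with the largest difference was Rps15 (NM_017151), a protein of the head of the small subunit. Its probe stood at 3.18, 6.01 and 5.97 in untreated samples and between 5.83 and 6.31 in the 12 treated ones, with a median of 6.06. Only untreated replicate 1 was low, and the untreated range still overlapped the treated one. That sample's arrays gave 0.52 and, on the repeat, 5.84. On the first of them, the probe's paired spots had processed signals of 77122 and 82.0, a ratio of 940, without an outlier flag on either. The limma difference was 1.03, 0.96, 1.04 and 1.01 (SE 0.53 each) from 2 h to 24 h and 1.01 (SE 0.42) in the mean, with an adjusted p of 1.00. Without the dim spot it was 0.20, 0.13, 0.22 and 0.18, and 0.18 in the mean. A second probe of Rps15 gave 0.04, -0.05, -0.18 and 0.06, and -0.03 in the mean. The difference of 1 log2 unit in Rps15 thus rests on a single spot.

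Among the small-subunit proteins, Rps19 (NM_001037346), which is mutated in Diamond-Blackfan anaemia, had the largest difference at 12 h after Rps15. It was at 5.84, 5.76 and 5.69 in untreated samples, at 5.74, 5.98 and 5.96 at 2 h, and at 5.70, 5.80 and 6.15 at 6 h. At 12 h it was at 5.96, 5.88 and 6.60, and at 24 h at 5.84, 5.88 and 6.03. Its 12 h samples lay above all untreated ones, with 12 h replicate 3 far above the rest. The difference there was 0.38 (SE 0.17, limma, unadjusted p = 0.0478, adjusted p = 0.997). In the mean of the 4 times it was 0.19 (SE 0.14), while the other probes of Rps19 gave -0.04 and 0.03.

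Rps3 (NM_001009239), which lies at the channel where messenger RNA enters and also has roles in DNA repair, was at 6.32, 6.30 and 6.20 in untreated samples. It was at 6.38, 6.46 and 6.55 at 2 h, at 6.20, 6.32 and 6.68 at 6 h, at 6.26, 6.44 and 7.00 at 12 h and at 6.38, 6.32 and 6.68 at 24 h. The 2 h and 24 h samples lay above the untreated ones (at 24 h by less than the second decimal shows), by a mean of 0.19 and 0.18 (SE 0.18). The second probe of Rps3 gave 0.22 in the mean of the 4 times, beside 0.20 (SE 0.14) for the one used. Rpsa (NM_017138), also known as the laminin receptor, was at 5.31, 5.38 and 5.31 in untreated samples and at 5.43, 5.53 and 5.75 at 2 h, which did not overlap (0.24, SE 0.14). At 6 h it was at 5.24, 5.30 and 5.70, at 12 h at 5.38, 5.30 and 5.50 and at 24 h at 5.43, 5.28 and 5.64, overlapping at each of these times.

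Rps6, the protein phosphorylated downstream of mTOR, differed by 0.14, 0.04, 0.06 and 0.08 (SE 0.11), and its second probe gave the same mean over the 4 times, 0.08. Rps7, which can bind Mdm2, differed by 0.16 (SE 0.11) in the mean, Rps10 by 0.15 (SE 0.12) and Rps16 by 0.11 (SE 0.09). Rps27a, made as a fusion with ubiquitin, differed by 0.12 with each of its probes. Rps13 had 0.14 at 6 h and 0.15 at 12 h. Rps23 had -0.07 at 6 h and Rps14 had -0.06 at 24 h. Rps14, Rps23 and Rps21 were near 0 in the mean (-0.02, -0.01 and 0.00).

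Rps21 had the lowest difference at 12 h, -0.31 (SE 0.25). It was at 5.84, 5.83 and 5.67 in untreated samples and at 5.89, 5.82 and 4.69 at 12 h. Only 12 h replicate 3 was low, and on that array its paired spots differed by 2.81 log2, the widest gap of any member pair there. In the other 14 samples Rps21 ran from 5.62 to 6.15.

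Of the stalk, whose proteins call elongation factors to the ribosome, Rplp0 (NM_022402) differed by 0.14, 0.08, 0.21 and 0.20 (SE 0.16). It was at 7.61, 7.78 and 7.65 in untreated samples and at 7.69, 7.90 and 8.06 at 24 h, which overlap. In the other groups it ran from 7.58 to 8.20, with replicate 3 the highest in each. Rplp1 differed by 0.14, 0.13, 0.14 and 0.09, and Rplp2 by 0.14, 0.04, 0.11 and 0.10 (SE 0.13 for both). All 3 had a higher mean at all 4 times and none passed the test, though the 12 h samples of Rplp1 lay above its untreated ones.

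**Figure D4:**
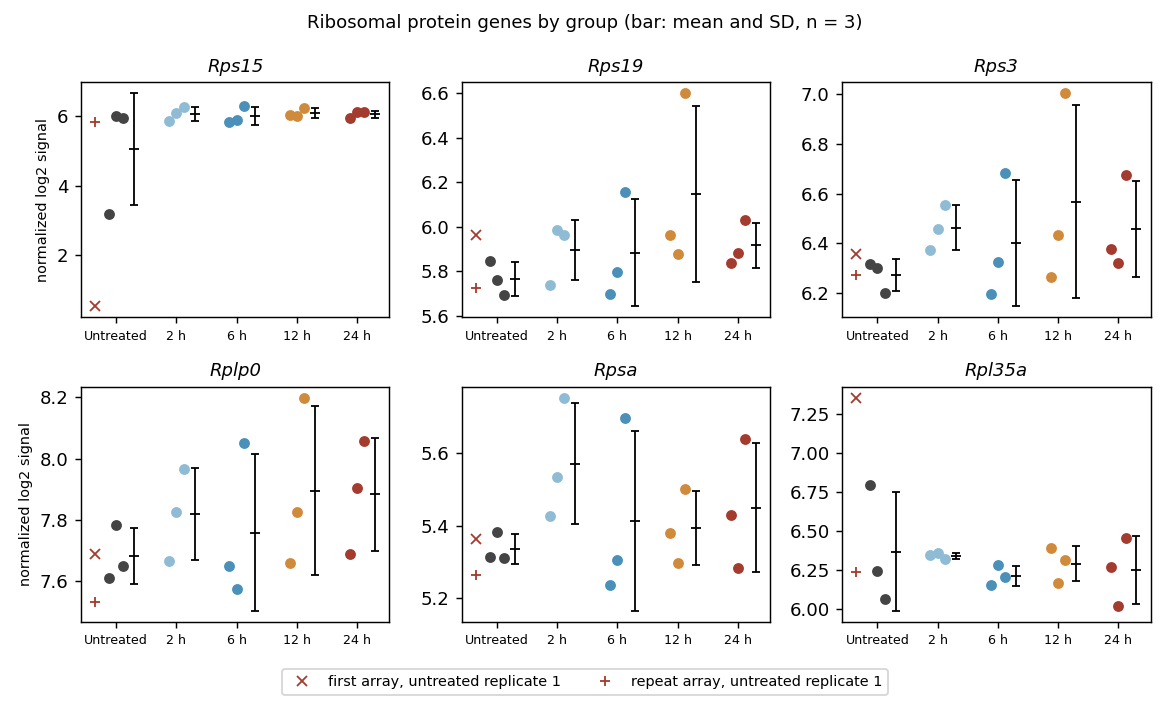
Normalized log2 signal (vertical axis, a scale of its own in each panel) of Rps15, Rps19, Rps3, Rplp0, Rpsa and Rpl35a in the 3 samples of each group (points), with group mean and SD (bars); crosses and plus signs are the first and the repeat array of untreated replicate 1, whose mean is the first untreated point. In Rps15 the first array stands at 0.52 and in Rpl35a at 7.35, away from the other samples.

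In the large subunit, Rpl14 had the largest difference at 2 h, 0.25 (SE 0.17), with samples at 6.57, 6.80 and 6.73 against 6.53, 6.60 and 6.21 untreated, which overlap. Rpl5 and Rpl11, which can bind Mdm2 together outside the ribosome, follow next. Rpl5 differed by -0.01, 0.06, 0.09 and -0.03 (SE 0.13) and Rpl11 by 0.11, -0.00, 0.13 and 0.09 (SE 0.11). Rpl13 differed by 0.16 (SE 0.11) in the mean of the 4 times, Rpl27 and Rpl35 by 0.14 (SE 0.10 each), and Rpl13a by 0.11 (SE 0.09) with 0.14 at 6 h. The value of Rpl35 is that of the probe used, and the probes of Rpl35 differed in sign in that mean. Rpl10, one of the last proteins added to the large subunit, differed by 0.02, 0.03, 0.14 and 0.03 (SE 0.12). Rpl22 had 0.19 at 2 h without overlap, from 4.99 to 5.33 in untreated samples and 5.36 to 5.47 at 2 h.

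Some members had a lower mean. Rpl3, which lies near the peptidyl transferase centre, was at 5.91, 5.83 and 5.85 in untreated samples and at 5.71, 5.75 and 5.67 at 6 h, a difference of -0.15 (SE 0.12) without overlap. It was 0.02, 0.07 and 0.00 at the other times. Rpl35a (NM_021264) differed by -0.03, -0.15, -0.08 and -0.12 (SE 0.16), but untreated replicate 1 stood at 7.35 on its first array and at 6.24 on the repeat. With the repeat array alone its mean difference was 0.09 in place of -0.09, and its other probes gave 0.09 and 0.07. Rpl6 had -0.16 at 12 h, with 12 h replicate 3 at 5.75 and the other 2 samples at 6.33 and 6.34.

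The paralogs are described last. Rps27l, a stress-induced relative of Rps27, differed by 0.15, 0.08, 0.14 and 0.11 (SE 0.18). Rpl3l, the muscle form of Rpl3, was near background, from -6.47 to -5.57, and differed by -0.07, 0.08, -0.27 and -0.16 (SE 0.17).

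For 42 tested genes with several probes past the filter, the probe used was the one of the highest mean signal. The 54 other probes had medians of 0.08, 0.02, 0.05 and 0.06 from 2 h to 24 h, with 49, 34, 38 and 40 higher, against 0.13, 0.04, 0.16 and 0.07 for the probes used. In 18 of the 42 genes the probes of a gene differed in sign in the mean of the 4 times. Mostly 1 probe was near 0, as in Rpl10a (0.08 and -0.01), Rpl12 (-0.01 and 0.01), Rpl22 (0.10 and -0.00), Rpl30 (0.08 and -0.01), Rpl31 (0.09 and -0.00) and Rpl36a (0.07, 0.02 and -0.01). The probes of Rps15a (0.11 and -0.08), Rpl37a (0.09 and -0.02), Rpl23a (0.08 and -0.05) and Rpl28 (-0.03, -0.00 and 0.05) were further apart or bracketed 0. Rpl35, Rpl6, Rps14 and Rps23 were also among the 18 genes.

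The repeated array of untreated replicate 1 shows how far the same RNA differed between 2 arrays, 1 on each slide. The first of them had the coefficient of variation of 15.5% given above. Repeat minus first, the median over the 76 members was -0.10, with 63 lower, against -0.05 over all features and -0.07 over the other bright ones. The median absolute difference of a member was 0.12. It is taken between single arrays and without sign, so it is not the same measure as the treatment differences between means of 3 samples. The extremes were -1.11 in Rpl35a and 5.32 in Rps15. Over all features, 609 were more than 1 log2 higher on the repeat and 92 more than 1 lower. With the repeat array in place of the mean, the members' medians were 0.14, 0.05, 0.14 and 0.08, and with the first array 0.09, 0.03, 0.11 and 0.05.

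**Figure D5:**
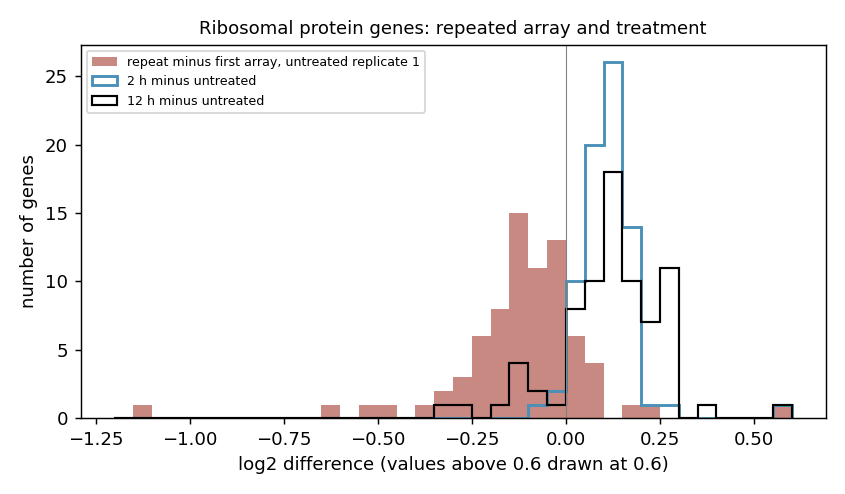
Number of ribosomal protein genes (vertical axis) by log2 difference (horizontal axis, values above 0.6 drawn at 0.6): repeat minus first array of untreated replicate 1 (filled), 2 h minus untreated (blue line) and 12 h minus untreated (black line). The filled distribution, from 1 RNA on 2 slides, has a median of -0.10 and is about as far from 0 as the outlined ones. It compares single arrays, and the outlined ones compare means of 3 samples.

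Other genes of the pathway gave 0 calls. Of a list of 7 ribosome parts and relatives outside the symbol rule 5 were tested, and 5, 4, 5 and 4 of them were higher from 2 h to 24 h, with medians of 0.07, 0.05, 0.07 and 0.06, and Rps4y2 had the largest mean difference, 0.11 (SE 0.10). Mitochondrial ribosomal proteins, which build the separate ribosome of mitochondria, are given beside them. Of 68, 51, 22, 35 and 39 were higher, with medians of 0.03, -0.03, 0.00 and 0.01. Mrpl18 differed by 0.83 (SE 0.32), with a lowest untreated value of -0.53 and the rest of that group up to 1.64 (0.16 without untreated replicate 1), and Mrpl4 by -0.15 (SE 0.14). Of 15 translation factors and other genes whose messages also carry the pyrimidine tract, 9, 6, 9 and 8 were higher, with medians of 0.06, -0.01, 0.01 and 0.00, Eif3h and Hnrnpa1 leading with 0.13 (SE 0.10) and 0.11 (SE 0.11).

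Of 30 ribosome biogenesis genes, 16, 14, 11 and 21 were higher, with medians of 0.02, -0.02, -0.03 and 0.04. Rrn3, which brings RNA polymerase I to ribosomal DNA, differed by -0.22 (SE 0.14) and Gar1, of the pseudouridylation complex, by 0.21 (SE 0.14), or 0.01 without untreated replicate 1. Of 16 genes of mTOR signalling and ribosomal stress, 7, 8, 10 and 9 were higher, with medians of -0.01, -0.01, 0.06 and 0.02. The kinase gene Rps6kb2 differed by 0.18 (SE 0.15) and the cell-cycle inhibitor Cdkn1a by 0.15 (SE 0.15), which became -0.08 and 0.07 without untreated replicate 1. No gene of these lists was called.

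Marker lists of cell types were set beside the shift, since a culture's makeup also sets the level of such messages, and fewer cells of a type cannot be told apart from less RNA per cell here. Astrocyte markers were higher in 6, 8, 10 and 8 of 10 cases, with medians of 0.06, 0.07, 0.14 and 0.08. Their median deviation ran from -0.16 to 0.04 in untreated samples, 0.00 to 0.05 at 2 h, -0.04 to 0.02 at 6 h, 0.08 to 0.21 at 12 h and -0.05 to 0.12 at 24 h. Aldoc had the largest mean difference (0.45, SE 0.14), from 5.49 to 6.35 in untreated samples and 6.32 to 6.73 in treated ones, and then Slc1a2 (0.33, SE 0.14). Without untreated replicate 1 they had 0.18 and 0.15. Neuron markers were higher in 3, 1, 8 and 2 of 12, with medians of -0.05, -0.05, 0.10 and -0.08. Their deviation ran from -0.10 to 0.15 in untreated samples, -0.13 to 0.16 at 2 h, -0.13 to 0.03 at 6 h, -0.06 to 0.42 at 12 h and -0.17 to 0.02 at 24 h, with Gad2 at -0.12 (SE 0.15) and Snap25 at -0.12 (SE 0.11). The part of these markers in the ribosomal protein differences was not tested.

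Microglia markers were higher in 4, 5, 4 and 4 of 6 (Csf1r 0.11, SE 0.12, Cx3cr1 0.11, SE 0.14). Oligodendrocyte lineage markers were higher in 5, 3, 4 and 8 of 9 (Mbp 0.24, SE 0.32, Olig2 -0.10, SE 0.20). Fibroblast, pericyte and endothelial markers were higher in 4, 1, 3 and 2 of 8 (Lum -0.38, SE 0.30, Col3a1 -0.27, SE 0.71). Dividing cell markers were higher in 2, 3, 4 and 2 of 8 (Ccnb1 0.33, SE 0.23, Bub1 -0.09, SE 0.16). Lum was low in signal, from -6.39 to -5.82 in untreated samples and -7.55 to -5.83 in treated ones. Leaving out 1 sample, the difference of Col3a1 ran from -0.89 to 0.23. None of these genes was called. Of the 22 genes chosen from the further lists and markers by size, 14 had a difference that turned or was smaller by over 1.5 times without untreated replicate 1, an alternative added for them after seeing the data. Among these, Ccnb1 turned to -0.11, Bub1 to 0.09, Olig2 to 0.02 and Cx3cr1 to -0.00, and Mbp fell to 0.06.

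The 2 h and 24 h samples were also compared directly. The 24 h mean was below the 2 h mean for 66 of 76 members (47.1% of all features), with a median difference of -0.04. The largest single difference there was -0.17 (Rpl14) and the smallest unadjusted limma p of a member was 0.251. The other bright features had a median of -0.02.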

How the data were processed

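The scanner output deposited for each array is spot intensity, per the file headers, read from 1-colour arrays by Feature Extraction (Agilent, 11.5.1.1, protocol GE1_1105_Oct12). The processed signal used is an intensity with background subtracted and no scaling between arrays. Per the labels, 200 ng of RNA was labelled with Cy3. The deposited series values are a score per array, the standard score of the log signal, checked against the scanner files; they served as an alternative for counts and signs.

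From these, control spots and outlier flags were left out and spots of a probe were averaged on the log2 scale. Probes were named by accession through the RefSeq gene list (18758 named, 11609 not). A probe passed the filter if some group had it well above background on each of its arrays, and the probe of highest mean stood for a gene: 18110 features, 11083 named genes and 7027 unnamed probes. limma 3.58.1 in R 4.3.3 fitted all 15 samples at once, with two-sided tests, a Benjamini-Hochberg threshold of 0.05, and 10 residual degrees of freedom (prior 3.56). The fit was tested on simulated data in which features varied independently, so that test does not cover members that move together. The number of arrays limits the precision. Apart from the ranking of probes and features by mean signal, no gene's level is compared with another's.

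Genes described with values were the 10 of smallest p in the mean of the 4 times, the 3 highest and 3 lowest at each time, members listed by role, and those whose probes differ in sign, plus 2 genes of each further list by size of the mean difference; genes whose groups did not overlap were named after their values were seen. A member and a gene of another list are counted but not reported here by name. Members and lists were chosen with earlier results of these data known. Alternatives were other scalings, backgrounds, filters, probes, slides, arrays and left-out samples. The files hold no mean signal column, so normexp (offset 50) used the median signal. Slides are those of the file headers.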

Additional observations from a re-analysis of the deposited data

How the results depend on the processing

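Alternatives were run with other scalings, backgrounds, filter, probes and arrays, the slide as a term, the deposited scores, the replicate block and left-out samples. Under each of them, apart from the fits within 1 slide, no member was called at any time or in the mean of the 4 times. In these settings no other feature was called either, so this does not set the members apart. The fits within 1 slide left 1 treated sample in some groups, so only their differences are given. The replicate block gave shifts of 0.12 at 2 h, 0.04 at 6 h, 0.13 at 12 h, 0.07 at 24 h and 0.09 for the 4 times averaged, with 73, 57, 66, 66 and 66 members higher, and changed no call. At an unadjusted p under 0.05 it gave 8 members at 12 h, against 1 without it. Over all 18110 features, 534 passed that level with the block and 419 without it. Same-numbered samples of different groups deviated together with r over 0.1 in 19 of 30 pairs (median 0.13, lowest -0.42), against 11 of 60 pairs of other numbers (median -0.08), and 11 of 15 samples correlated best with their own number. No label ties the numbers to a shared culture, and not every pair passed 0.1, so they were not taken as pairs. Under quantile normalization the shift was 0.03 at 2 h and -0.01 at 24 h, and 42 members were higher at 12 h (shift 0.011), 27 at 24 h and 42 for the 4 times averaged, and the highest sample median was 0.038. Within slide 1, 44 were higher at 2 h (shift 0.01), 6 at 6 h (shift -0.098) and 43 at 12 h (0.013). Within slide 2 the shift was 0.25 at 2 h and 0.24 at 6 h, each from 1 treated array, as was the 12 h value of slide 1. With replicates 1 and 2 only, chosen after seeing the data, the shift was 0.04 at 2 h, 0.03 at 12 h and -0.02 at 24 h, and 5 were higher at 6 h (shift -0.076), 28 at 24 h and 36 for the 4 times averaged. Leaving out 1 sample, between 12 and 71 were higher at 6 h, and the shift ran from -0.048 to 0.10. For 2 h, 12 h, 24 h and the average, 67 to 73, 61 to 66, 45 to 68 and 59 to 70 were higher, and shifts ran from 0.069 to 0.17, 0.063 to 0.17, 0.0083 to 0.11 and 0.058 to 0.11. Fits that left out a sample pooled the spread over all groups. The causes were not tested.

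Of the 39 members described by rule, 19 changed the sign of their mean log2 difference at least once. With the deposited scores these were Rpl12 (0.021), Rpl28 (0.013), Rpl3 (0.018), Rpl6 (0.018), Rps14 (0.017) and Rps23 (0.027), in score units. With untreated replicate 1 from its first array, they were Rpl37a (-0.0023) and Rps21 (-0.025), and from its repeat array Rpl12 (0.015), Rpl3 (0.040), Rpl35a (0.090), Rpl6 (0.057), Rps14 (0.085) and Rps23 (0.011). Averaging probes turned Rpl12 (0.0015), Rpl28 (0.0059), Rpl35a (0.021), Rps14 (0.0027) and Rps23 (0.023), and median centring Rps21 (-0.0060). Normexp turned Rpl3 (0.0083), Rpl35a (0.16), Rpl3l (0.17), Rpl5 (-0.0078), Rpl6 (0.012), Rps14 (0.11) and Rps21 (-0.018). Quantile normalization turned Rpl10 (-0.027), Rpl10a (-0.0066), Rpl31 (-0.0035), Rpl37a (-0.021), Rpl5 (-0.012), Rplp0 (-0.0060), Rplp2 (-0.0093) and Rps21 (-0.064). Within slide 1 Rpl10 (-0.026), Rpl31 (-0.021), Rpl37a (-0.16), Rpl5 (-0.043) and Rps13 (-0.0052) turned, and within slide 2 Rpl12 (0.13), Rpl28 (0.073), Rpl3 (0.10), Rpl35a (0.076), Rpl3l (0.033), Rpl6 (0.090), Rps14 (0.12) and Rps23 (0.068). Leaving out 1 sample turned Rpl10a (-0.00024 to 0.13), Rpl12 (-0.036 to 0.015), Rpl22 (-0.0071 to 0.16), Rpl23a (-0.0025 to 0.14), Rpl3 (-0.052 to 0.011), Rpl35a (-0.25 to 0.12), Rpl5 (-0.046 to 0.067), Rpl6 (-0.11 to 0.072), Rps14 (-0.10 to 0.10), Rps21 (-0.052 to 0.10) and Rps23 (-0.038 to 0.029).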
